A study of Homo sapiens and Mus musculus with 36 samples.

Results

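The tubulin genes are the building blocks of microtubules. The 10 described here are the α-tubulin genes TUBA1A, TUBA1B, TUBA1C and TUBA4A and the β-tubulin genes TUBB, TUBB2A, TUBB2B, TUBB3, TUBB4B and TUBB6. They were found by symbol, 10 of 26868 genes in the 10 human comparison tables and 10 of 16699 genes in the 3 mouse tables, where they carry mouse letter case and Tubb5 stands for TUBB. Each had a row in all 13 tables. The 10 were chosen by family name with their log2 fold changes in these comparisons already known, and so were in part selected on those values, which are given as a description beside the share of all genes called.

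The series holds 36 RNA-seq libraries, 2 for each of 18 groups, made to compare cells in which EZH2 was degraded, inhibited or depleted, or SREBP2 was depleted, with their controls. EZH2 is the histone methyltransferase of the Polycomb repressive complex, and SREBP2, encoded by SREBF2, is the transcription factor of cholesterol synthesis. HepG2, a human liver cancer line, received 5 µM for 48 h of MS7126 (a PROTAC, which directs EZH2 to the proteasome), of C24 (the catalytic inhibitor matched to it), of MS7126N1 or of MS7126N2 (analogues that are not PROTACs), each set against 1 shared pair of DMSO libraries. Huh7, another human liver cancer line, received 5 µM MS7126 or DMSO for 24 h by 1 label and 48 h by another. Huh7 also carried an EZH2 hairpin (shEZH2) or a control hairpin (shControl). HepG2 carried a hairpin labelled shEZH2 or 1 of 3 SREBP2 hairpins (#664, #665, #667), and all 4 share 1 shControl pair, named empty vector in 1 label and scramble in another. The hairpins were delivered by pLKO.1-puro lentivirus with puromycin selection. WEHI-231, a mouse B-cell lymphoma line, received 1 µM for 16 h of MS8815 (an EZH2 PROTAC), of EPZ-6438 (a catalytic EZH2 inhibitor) or of MS8815N (an analogue that is not a PROTAC), all set against 1 pair of DMSO libraries. Whether paired libraries of a group were grown as separate cultures is not labelled, and a p-value here covers library-to-library spread, which may be technical.

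Counts per library were used for Huh7 shEZH2, with totals of 10106231 to 11954361 estimated counts. For the other comparisons the authors' deposited tables gave a mean, a log2 fold change and its standard error (SE), and the depth of each library is unknown. EZH2 fell by 2.65 on the log2 scale in Huh7 shEZH2 cells (edgeR quasi-likelihood test, adjusted p = 3.02e-13). In the authors' deposited table for HepG2 libraries labelled shEZH2 it was higher, by 0.90 (adjusted p = 0.0337), and these are called "labelled shEZH2" throughout. SREBF2 fell by 1.58, 1.08 and 2.35 with #664, #665 and #667 in the authors' deposited tables. All 10 hepatocyte markers were present in every human table, and all 8 B-cell markers in WEHI-231. HepG2 tables held at most 3 of the 8 B-cell markers, at a summed level of at most 2.58 CPM (counts scaled to a fixed library total), and Huh7 tables held 0.

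Microtubules are hollow polymers of α/β-tubulin heterodimers, and they form the mitotic spindle and the tracks of intracellular transport. Vertebrates encode several isotypes of each chain, of which TUBA1A, TUBB2B and TUBB3 are best known from neurons, while TUBA1B, TUBA1C, TUBB and TUBB4B are widespread. New chains are folded by prefoldin, the CCT chaperonin and the tubulin cofactors TBCA to TBCE. Cells also adjust tubulin messages to the amount of free heterodimer: TTC5 reads the start of the chain as it leaves the ribosome, and SCAPER links it to the CCR4-NOT deadenylase, which removes the message.

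The first 12 coding bases of 9 of the 10 genes, all but TUBB6, are shown because this autoregulation reads the start of the chain. They come from GENCODE 29 transcripts on GRCh38, and capitals mark the last codon.
TUBA1A: atgcgtgagTGC
TUBA1B: atgcgtgagTGC
TUBA1C: atgcgtgagTGC
TUBA4A: atgcgtgaaTGC
TUBB: atgagggaaATC
TUBB2A: atgcgcgagATC
TUBB2B: atgcgtgagATC
TUBB3: atgagggagATC
TUBB4B: atgagggaaATC
In the 9 genes shown, the 4 α genes end in TGC and the 5 β genes in ATC. TUBA1A, TUBA1B and TUBA1C share all 12 bases, and so do TUBB and TUBB4B. Among 14267 genes with a principal transcript, 3 begin with the bases of each of these sets. The α genes have 3 coding bases, the start codon alone, in their first coding exon, and the 5 β genes shown have 57. The start of TUBB6 is not described here.

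The genes also resemble each other further along, which bears on how reads were divided among them. TUBB6 (chr18:12307669-12344320) held the largest share of 31-base stretches found in no other gene's transcripts, 93.9%, followed by TUBB4B (chr9:137241213-137243707) with 74.4%. TUBB2A (chr6:3153669-3157526) had 30.0% of its stretches to itself and shared 63.7% with TUBB2B (chr6:3224261-3231730). TUBA1B (chr12:49127782-49131397) had 6.57% to itself and shared 70.3% with an overlapping annotation that carries only a clone name. TUBB3 (chr16:89921392-89938761) had 9.37% to itself and shared 89.5% with another clone-named annotation that runs through it. TUBA1A (chr12:49184796-49189324) overlaps the start of the TUBA1C gene (chr12:49188736-49274603) on the other strand, and whether counting used strand is not given in the sources used here. TUBA1A had 36.8% of its stretches to itself and shared 48.6% with TUBA1C, which had 52.9% to itself. Values of TUBA1A, TUBA1B, TUBA1C, TUBB2A, TUBB2B and TUBB3 are therefore uncertain in how reads were assigned.

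The main β-tubulin messages fell with MS7126 in both liver lines, and TUBB6 rose. In HepG2 cells 4 of the 10 genes fell and 2 rose, beside 8.06% and 7.44% of all genes tested in the authors' deposited table. In Huh7 cells 5 fell and 2 rose, beside 16.3% and 17.5%. TUBB, TUBB3 and TUBB4B fell in both lines and TUBB6 rose in both, where 5.26% of genes tested in both tables fell in both and 4.42% rose in both. The median log2 fold change of the 10 genes was -0.18 in HepG2, beside 0.01 for all genes, and -0.33 in Huh7, beside -0.01. Scaled to equal totals of all genes, a setting chosen after seeing the data, these medians were -0.02 in HepG2 and -0.25 in Huh7. In bulk RNA, fewer cells with a message and less message per cell cannot be told apart. The direction of the Huh7 table rests on the series' description of it.

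TUBB4B, a widespread isotype also used in cilia, had a rebuilt level of 341 CPM in HepG2 cells with MS7126 and 655 with DMSO. In Huh7 cells it had 744 with MS7126 and 1371 with DMSO. These normalised levels were rebuilt from the mean and fold change of the authors' deposited tables, are means of 2 libraries with no SD, and are scaled to the summed level of the control group. The log2 fold change of TUBB4B in the authors' deposited tables was -0.94 (SE 0.14, adjusted p = 3.01e-10) in HepG2 and -0.88 (SE 0.12, adjusted p = 3.97e-12) in Huh7. TUBB, per kilobase the most abundant β message of HepG2 cells with MS7126 and with DMSO, had 1074 CPM with MS7126 and 1721 with DMSO in HepG2, and 1334 with MS7126 and 2037 with DMSO in Huh7. In the authors' deposited tables it had log2 fold changes of -0.68 (SE 0.12) and -0.61 (SE 0.09). TUBB3, the class III isotype, fell by 0.76 (SE 0.15) and 0.66 (SE 0.13) in the same tables.

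TUBB6, a widely expressed but usually minor isotype, rose. Its rebuilt level was 75.1 CPM with MS7126 and 52.0 with DMSO in HepG2, and 765 with MS7126 and 453 with DMSO in Huh7. The log2 fold change in the authors' deposited tables was 0.53 (SE 0.19, adjusted p = 0.0359) in HepG2 and 0.75 (SE 0.10, adjusted p = 2.69e-12) in Huh7. The HepG2 call was lost when p-values were adjusted over every gene with a p (adjusted p = 0.0509). TUBB2A and TUBB2B did not pass the threshold in either line, with values from 0.11 to 0.39 in the authors' deposited tables. Per kilobase of transcript, TUBB6 made up 24.3% of the 6 β messages in Huh7 cells with MS7126 and 10.8% with DMSO, and 4.77% with MS7126 and 2.08% with DMSO in HepG2. TUBB4B made up 29.8% with MS7126 and 41.3% with DMSO in Huh7, and 27.4% with MS7126 and 32.9% with DMSO in HepG2. TUBB held 32.7% with MS7126 and 37.7% with DMSO in Huh7, and 52.8% with MS7126 and 53.1% with DMSO in HepG2. The 6 β messages together stood at 63.0% of the DMSO level in HepG2 and 75.8% in Huh7.

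**Figure D1:**
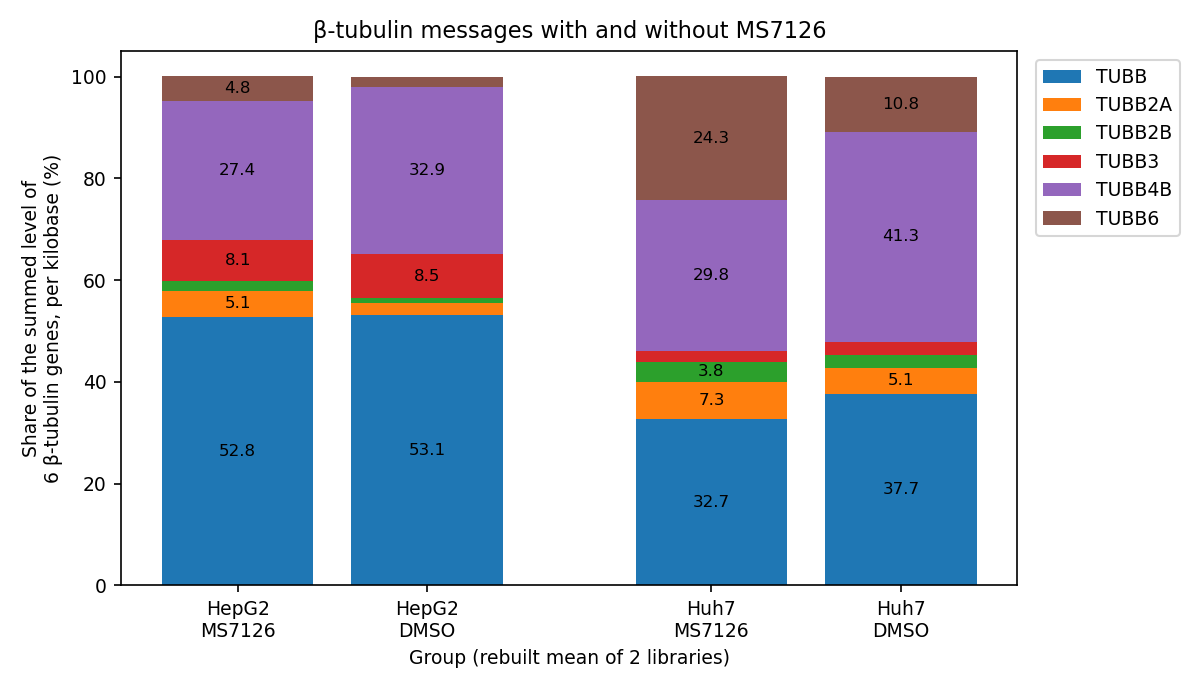
Share of each β-tubulin gene in the summed rebuilt level of the 6 β genes per kilobase of transcript (vertical axis, %), in HepG2 and Huh7 with MS7126 and with DMSO, each bar the mean of 2 libraries. TUBB6 takes 24.3% in Huh7 with MS7126 and 10.8% with DMSO, while the TUBB share in HepG2 is 52.8% with MS7126 and 53.1% with DMSO.

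Of the 10 genes, TUBA1A and TUBA1C differed between the lines. TUBA1A, an isotype best known from developing neurons, had a rebuilt level of 18.2 CPM with MS7126 and 41.7 with DMSO in HepG2, and 68.2 with MS7126 and 34.5 with DMSO in Huh7. Its log2 fold change in the authors' deposited tables was -1.19 (SE 0.23) in HepG2 and 0.98 (SE 0.14) in Huh7. The difference was -2.18 (95% interval -2.71 to -1.65, adjusted p = 5.58e-13, normal test of the difference of log2 fold changes over all genes), and 5.71% of genes differed at this threshold. TUBA1C, a widespread isotype, also differed, by 0.68 (95% interval 0.26 to 1.10, adjusted p = 0.0325). Its values were -0.07 (SE 0.18, adjusted p = 0.882) in HepG2 and -0.75 (SE 0.12, adjusted p = 5.15e-09) in Huh7 in the authors' deposited tables. The other 8 genes did not differ at this threshold, and the intervals of TUBB, TUBB3 and TUBB4B ran from -0.49 to 0.30. Among the 8, TUBA4A had a larger difference than TUBA1C, 1.42 (95% interval 0.39 to 2.46, adjusted p = 0.0962), but with a wide interval. Dose was matched but the time in Huh7 is uncertain, so line and time cannot be told apart.

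TUBA1B, per kilobase the most abundant α message in both lines, fell by 0.56 (SE 0.10) in Huh7 in the authors' deposited table and had -0.29 (SE 0.17, adjusted p = 0.282) in HepG2. TUBA4A, a minor α isotype here, rose by 1.33 (SE 0.46, adjusted p = 0.0312) in HepG2, at 9.01 CPM with MS7126 and 3.59 with DMSO rebuilt from the authors' deposited table. In Huh7 it had -0.10 (SE 0.26). The 4 α messages together stood at 83.9% of DMSO in HepG2 and 67.7% in Huh7.

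**Figure D2:**
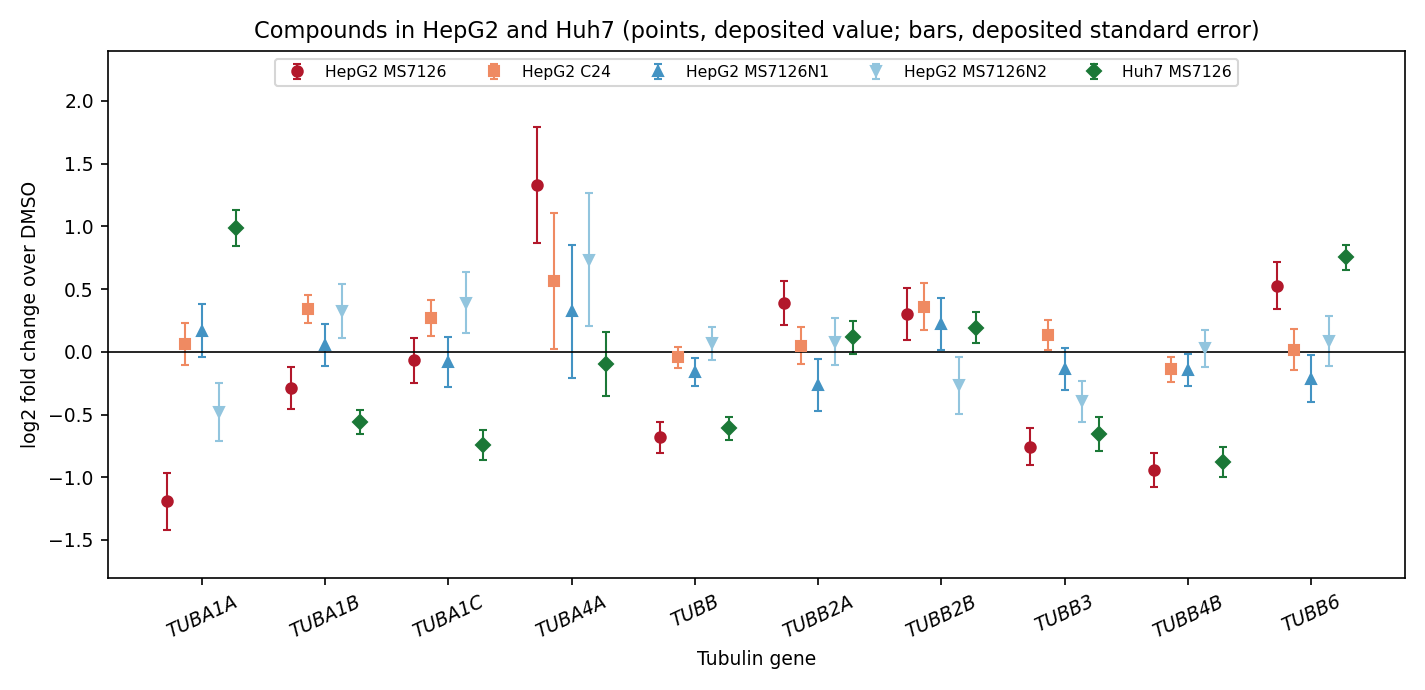
log2 fold change over DMSO (vertical axis) of the 10 tubulin genes for MS7126, C24, MS7126N1 and MS7126N2 in HepG2 and MS7126 in Huh7, points with bars of 1 deposited standard error. TUBB4B lies at -0.94 and -0.88 with MS7126 in the 2 lines and between -0.15 and 0.03 with the other compounds, and TUBA1A lies at -1.19 in HepG2 and 0.98 in Huh7.

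C24, MS7126N1 and MS7126N2 were set against the same DMSO pair at the same dose and time as MS7126. With C24, 1 of 9 genes tested passed, TUBA1B, which rose by 0.34 (SE 0.11, adjusted p = 0.0387), beside 3.01% of genes called higher and 4.01% called lower in the authors' deposited table. With MS7126N1 and MS7126N2 none of the 10 passed, beside 0.159% and 0.703% of genes called in the authors' deposited tables. At an unadjusted p under 0.05 there were 0 of the 10 with MS7126N1 and 2 with MS7126N2. These 2 were TUBA1A (-0.48, SE 0.23) and TUBB3 (-0.39, SE 0.16), both lower, the direction they had with MS7126. The summed level of all genes over DMSO stood at a log2 ratio of -0.16 with MS7126, -0.22 with C24, -0.12 with MS7126N1 and -0.11 with MS7126N2. Scaled to equal totals, TUBA1C with MS7126 and with MS7126N1, and TUBB and TUBB4B with C24, turn from slightly negative to positive, and none of these was called. From the authors' deposited tables, TUBB4B had values of -0.94 (SE 0.14) with MS7126, -0.14 (SE 0.10) with C24, -0.15 (SE 0.13) with MS7126N1 and 0.03 (SE 0.15) with MS7126N2.

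In 6 HepG2 pairs, p-values of each difference were adjusted over all genes of the pair. TUBB4B was lower with MS7126 than with each of the others, by -0.80 (95% interval -1.13 to -0.47, adjusted p = 0.000179) against C24, by -0.79 (-1.16 to -0.43, adjusted p = 0.00171) against MS7126N1 and by -0.97 (-1.36 to -0.58, adjusted p = 0.000383) against MS7126N2. Against C24, 5 genes differed, all lower with MS7126, beside 2.84% of genes lower at this threshold. They were TUBA1A (-1.26), TUBA1B (-0.63), TUBB (-0.64), TUBB3 (-0.89) and TUBB4B. Against MS7126N1, 2 differed, TUBA1A (-1.36) and TUBB4B, beside 1.93% lower. Against MS7126N2, 2 differed, TUBB (-0.75) and TUBB4B, beside 0.909% lower. The differences of TUBA1A (-0.71, 95% interval -1.35 to -0.07, adjusted p = 0.599) and TUBB3 (-0.36, -0.80 to 0.07) from MS7126N2 did not pass. The summed variance was also divided by 2, on the assumption that shared DMSO and treated libraries contribute equally to it. In that setting 6 genes differed from MS7126N1 and 4 from MS7126N2. The rise of TUBB6 did not differ from C24 after adjustment (0.51, 95% interval 0.02 to 1.00, adjusted p = 0.366).

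Between C24 and MS7126N1, C24 and MS7126N2, and the 2 analogues, 0 of the 10 genes differed, beside 0.111%, 0.333% and 0.0776% of genes. The interval for TUBB4B was -0.32 to 0.33 between C24 and MS7126N1, and a difference inside it could not be detected here. For TUBB3 it was 0.13 to 0.93 between C24 and MS7126N2 (adjusted p = 0.892). Under the same assumption about the shared DMSO variance, 1 gene differed in that pair.

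Some other genes of the tubulin system were also called with MS7126. Of all genes, 7.44% were called higher and 8.06% lower in HepG2, and 17.5% and 16.3% in Huh7. The counts of the short autoregulation and CCT lists were not far from these shares. TUBG1, the γ-tubulin that nucleates microtubules, fell in both lines, by 0.48 in HepG2 and 0.77 in Huh7 in the authors' deposited tables. CNOT10, a CCR4-NOT subunit, rose in both, by 0.82 and 1.16. Of 12 genes of tubulin message autoregulation, 1 rose and 0 fell in HepG2, and 3 rose and 0 fell in Huh7. TTC5 rose by 0.66 in Huh7 (adjusted p = 0.0130) and had 0.09 (adjusted p = 0.907) in HepG2. Of 8 CCT subunits, 1 rose and 0 fell in HepG2 and 1 rose and 2 fell in Huh7, and CCT2 rose in both by 0.45 and 0.39. Of 13 prefoldin and cofactor genes, 2 fell in HepG2, PFDN6 by 1.09 and TBCB, a cofactor of α-tubulin, by 0.61, and 3 rose and 3 fell in Huh7.

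Other structural genes of the cytoskeleton were lower in 11 of 21 and higher in 0 in HepG2, and lower in 6 and higher in 6 of 22 in Huh7. The same shares of all genes stand beside these and the following counts. TPM1, a tropomyosin, fell by 1.12 and 0.67, and LMNB1, a nuclear lamin, by 0.98 and 1.02. Keratin KRT19 fell by 0.93 in HepG2 and rose by 1.72 in Huh7 in the authors' deposited tables. Proliferation genes fell in 15 of 20 in each line, with medians of -0.87 in HepG2 and -0.64 in Huh7. Among them, MKI67 had -1.27 and -0.87 and AURKB, a mitotic kinase, -1.36 and -0.99, all past the threshold. Of 22 genes of microtubule binding and dynamics tested in each line, 1 rose and 2 fell in HepG2, and 4 rose and 2 fell in Huh7. These counts were not far from the shares of all genes. In HepG2, STMN1, which sequesters tubulin dimers, fell by 0.96, KIF2C fell by 0.92 and CLIP1 rose by 0.64. In Huh7, MAP1B rose by 1.12. Hepatocyte markers fell in 6 of 10 in HepG2 and 8 of 10 in Huh7. Of the markers of other cells, 2 of 4 tested fell in HepG2, at 487 CPM in sum, and 2 rose and 2 fell of 5 in Huh7, at 134 CPM. The part of proliferation and of these markers in the tubulin values was not tested.

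In Huh7 cells with the EZH2 hairpin, TUBA1A and TUBB3 rose and TUBB2A and TUBB6 fell, and each library can be seen. Of the 10 genes 6 rose and 2 fell, beside 19.5% and 19.3% of genes (edgeR quasi-likelihood test, adjusted p under 0.05). Both shEZH2 libraries lay above both controls for 8 genes, beside 34.1% of genes, and below both for 2, beside 34.5%. TUBA1A had 30.2 and 28.1 CPM in shEZH2 libraries, against 14.8 and 18.1 in shControl libraries, higher by 0.83 on the log2 scale (SE 0.10, edgeR adjusted p = 6.84e-06). TUBB3 had 81.7 and 80.6 CPM, against 50.4 and 46.0, a change of 0.75 (SE 0.06, edgeR adjusted p = 3.39e-08). For both genes the groups did not overlap.

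TUBB2A and TUBB6 went the other way. TUBB2A had 116 and 110 CPM in shEZH2 libraries, against 165 and 159 in shControl libraries, and fell by 0.52 (SE 0.04, edgeR adjusted p = 6.23e-08). TUBB6 had 314 and 317 CPM, against 385 and 379, and fell by 0.28 (SE 0.03, edgeR adjusted p = 7.94e-07). Its direction with MS7126 in the same line was upward, by 0.75 in the authors' deposited table, and the difference between these comparisons was not tested. The paralogue TUBB2B, which shares long stretches with TUBB2A, had 68.5 and 74.8 CPM, against 66.9 and 66.4 (0.10, SE 0.06, edgeR adjusted p = 0.154). TUBA4A rose by 0.54 from a low level, 13.2 and 14.5 CPM in shEZH2 libraries, against 9.81 and 9.28 in shControl libraries (edgeR adjusted p = 0.00254). With the DESeq2 Wald test its adjusted p was 0.0508.

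The abundant genes changed little. TUBB4B had 1121 and 1109 CPM in shEZH2 libraries, against 985 and 985 in shControl libraries, and rose by 0.18 (SE 0.02). TUBA1B and TUBB rose by 0.09 (SE 0.02) and 0.07 (SE 0.02), while TUBA1C had 0.06 (SE 0.02, edgeR adjusted p = 0.0752). TUBB lost its call without shEZH2 replicate 1 or 2 (adjusted p = 0.101 and 0.0522). All α genes summed to 2897 ± 3.89 CPM in shEZH2 cells and 2726 ± 48.4 CPM in shControl cells, and all β genes to 3434 ± 16.3 and 3301 ± 20.1 (SD, n = 2 each).

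Per kilobase of transcript, levels in shControl cells ran from TUBA1B at 1255 ± 17.0 CPM per kilobase through TUBB at 620 ± 2.92, TUBB4B at 602 ± 0.026, TUBA1C at 219 ± 6.26 and TUBB6 at 185 ± 2.13 (SD, n = 2). TUBB2A followed at 101 ± 2.78, then TUBB2B at 33.0 ± 0.195, TUBB3 at 27.2 ± 1.74, TUBA1A at 8.58 ± 1.21 and TUBA4A at 4.42 ± 0.17. Each gap between neighbours was larger than their SDs, but the longest annotated transcript puts TUBB at 571, below TUBB4B. In shEZH2 cells TUBB3 at 45.9 ± 0.452 stood above TUBB2B at 35.5 ± 2.20, and TUBB4B at 681 ± 5.14 above TUBB at 651 ± 3.49.

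**Figure D3:**
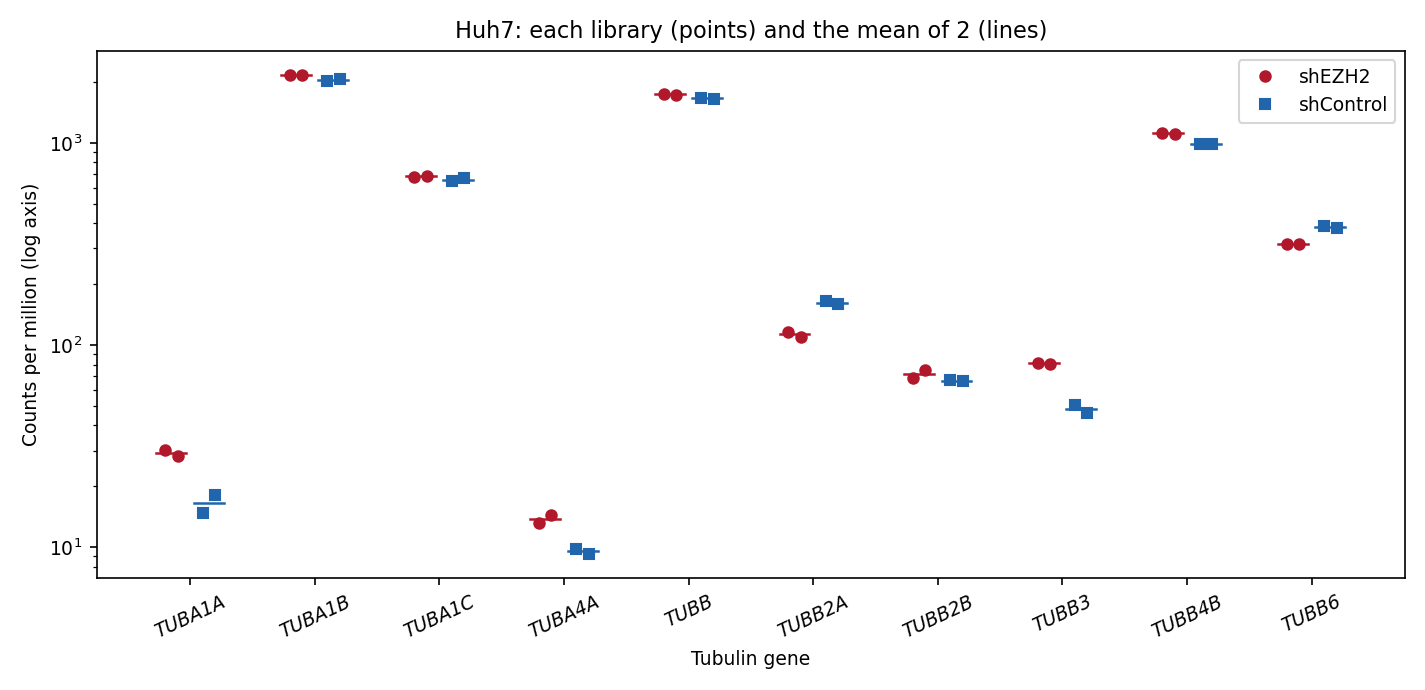
CPM (vertical log axis) of the 10 tubulin genes in each Huh7 shEZH2 and shControl library, with lines at the mean of 2. TUBA1A, TUBB3 and TUBA4A lie higher in shEZH2 libraries, TUBB2A and TUBB6 lower, and TUBA1B sits at 2171 and 2169 in shEZH2 libraries and 2022 and 2062 in shControl libraries.

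The counts of the other lists in Huh7 shEZH2 cells stand beside 19.5% of all genes called higher and 19.3% called lower. Those of the CCT and proliferation lists were near or below these shares. Of 8 CCT subunits 1 fell (CCT3, by 0.12) and 0 rose. Of 11 autoregulation genes tested 5 rose and 2 fell, with TTC5 higher by 0.31 and SCAPER lower by 0.30. Of 22 genes of microtubule binding and dynamics tested 8 rose and 6 fell. Among them, STMN1 rose by 0.59 and STMN3, a neuronal stathmin, fell by 0.82 (edgeR adjusted p = 0.000157). Structural genes of the rest of the cytoskeleton fell in 14 of 22 and rose in 4, with TPM1 lower by 0.96 and the filamin FLNA by 0.47 (edgeR adjusted p = 5.85e-10). Proliferation genes rose in 2 and fell in 4 of 20. Hepatocyte markers rose in 2 and fell in 6 of 10, with AFP lower by 0.74, TTR higher by 0.66 and ALB lower by 0.53. Of 4 markers of other cells 1 rose and 2 fell, at 797 CPM in sum, with the collagen gene COL1A2 higher by 3.08 (edgeR adjusted p = 1.17e-11) and LYZ lower by 0.16. The part of these in the tubulin values was not tested.

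In HepG2 all 4 hairpin groups had lower levels of most tubulin genes than the shControl pair they share. Going by the authors' deposited tables, 9 of 10 fell in the libraries labelled shEZH2, 10 with #664, 10 with #665 and 7 with #667, where 1 rose. The shares of all genes called lower were 28.6%, 26.8%, 20.0% and 19.3%, and 18.6% were called higher with #667. The medians of the 10 genes were -1.29, -1.19, -1.10 and -0.80, beside 0.00, 0.01, 0.01 and 0.01 for all genes. Since the control libraries are the same in all 4 tables, a trait of that pair and an effect of the hairpins cannot be told apart.

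TUBA1A had the largest change of the 10 in each of the 4 tables. Its rebuilt level was 2.57 CPM in the libraries labelled shEZH2, 2.91 with #664, 10.6 with #665 and 14.5 with #667, against 45.7 in shControl libraries. It fell in all 4, with log2 values of -4.15 (SE 0.19), -3.97 (SE 0.14), -2.11 (SE 0.15) and -1.66 (SE 0.14) in the authors' deposited tables. TUBB2B had 7.68, 8.59, 14.9 and 22.8 CPM in the same order, against 52.9 to 53.0 in shControl libraries. It fell in all 4, with -2.79 (SE 0.13), -2.62 (SE 0.10), -1.83 (SE 0.14) and -1.21 (SE 0.15) in the authors' deposited tables. TUBB3 fell in all 4, with -1.63, -1.84, -1.23 and -1.48.

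TUBA1B, per kilobase the leading α message, had 278, 401, 413 and 523 CPM, against 1316 in shControl libraries, and stood at 21.1%, 30.5%, 31.4% and 39.7% of that level. TUBA1C stood at 40.2%, 40.8%, 41.7% and 50.8%. TUBB, per kilobase the leading β message of shControl libraries, kept 64.9%, 67.0%, 76.6% and 66.4% and TUBB4B 83.0%, 85.9%, 85.3% and 95.5% (adjusted p = 0.596 with #667), all rebuilt from the authors' deposited tables. TUBB6 stood at 41.4%, 47.3%, 60.2% and 64.8%. TUBB2A stood at 44.8%, 56.0%, 51.4% and 88.9% (adjusted p = 0.258 with #667 in the authors' deposited table).

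TUBA4A did not follow the rest. It stood 0.12 higher (log2, adjusted p = 0.573) in the libraries labelled shEZH2, fell by 0.55 and 0.58 with #664 and #665 and rose by 0.87 (SE 0.16) with #667 in the authors' deposited tables. The 4 α messages together stood at 27.9%, 33.8%, 35.0% and 44.2% of the shControl level, and the 6 β messages at 64.7%, 66.8%, 73.8% and 71.5%. Scaled to equal totals, the fold changes of these tables would be lower still, by 0.35, 0.25, 0.20 and 0.21 on the log2 scale.

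**Figure D4:**
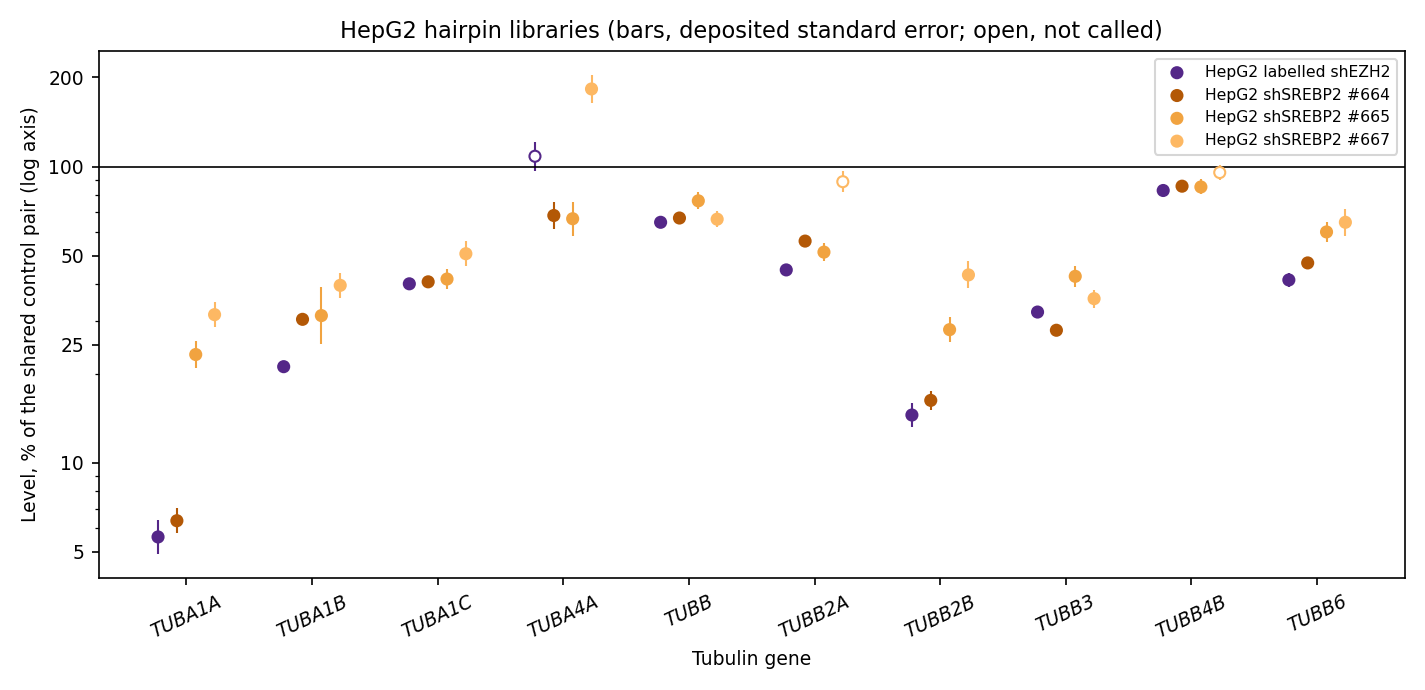
Level as a percentage of the shared shControl pair (vertical log axis) of the 10 tubulin genes in HepG2 libraries labelled shEZH2 and with SREBP2 hairpins #664, #665 and #667, with bars of 1 deposited standard error and open points for genes not called. TUBA1A lies at 5.62% to 31.6%, TUBB4B at 83.0% to 95.5%, and TUBA4A at 66.7% to 183%.

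The promoters of TUBA1A, TUBB2B and TUBB4B are shown because TUBA1A and TUBB2B fell far in these libraries and TUBB4B little, and because each has 1 start in the table. They are the 250 bases before the start in RefSeq on GRCh38.p14, 5′ to 3′ on the gene's strand, with capitals for CCAAT and GGGCGG on either strand.
TUBA1A (chr12:49189081-49189330, - strand): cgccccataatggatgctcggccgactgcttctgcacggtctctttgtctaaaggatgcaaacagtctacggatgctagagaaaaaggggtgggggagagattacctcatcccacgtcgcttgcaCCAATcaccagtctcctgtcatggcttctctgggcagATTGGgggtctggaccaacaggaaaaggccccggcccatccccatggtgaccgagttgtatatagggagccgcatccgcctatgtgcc
TUBB2B (chr6:3227654-3227903, - strand): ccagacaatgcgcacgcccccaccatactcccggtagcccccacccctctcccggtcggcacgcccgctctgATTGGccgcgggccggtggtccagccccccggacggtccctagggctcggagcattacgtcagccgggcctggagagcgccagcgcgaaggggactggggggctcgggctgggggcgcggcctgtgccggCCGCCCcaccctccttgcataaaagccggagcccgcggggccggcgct
TUBB4B (chr9:137241037-137241286, + strand): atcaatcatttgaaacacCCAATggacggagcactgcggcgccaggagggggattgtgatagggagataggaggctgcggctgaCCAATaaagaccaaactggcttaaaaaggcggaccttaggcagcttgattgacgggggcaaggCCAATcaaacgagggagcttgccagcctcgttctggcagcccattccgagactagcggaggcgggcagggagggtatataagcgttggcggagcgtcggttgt
CCAAT stands 2 times before TUBA1A, 1 time before TUBB2B and 3 times before TUBB4B, and GGGCGG 1 time before TUBB2B. Counting all windows of the 10 genes, 7 have CCAAT, 8 GGGCGG, 1 TATAAA and 2 CACGTG. Of 35116 promoter windows of this length in the table, 32.0%, 42.6%, 10.7% and 6.34% hold them on either strand. A match is a description of the letters, and genes with 2 or 3 starts had more than 1 window to hold one.

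Other genes of the tubulin system did not all follow in the HepG2 hairpin libraries. The shares of all genes called lower were 28.6%, 26.8%, 20.0% and 19.3%. The share called higher was 18.6% with #667. It is not given here for the other tables, so their counts of risen genes have no share beside them. CCT subunits fell in 8, 7, 4 and 2 of 8 and rose in 0 in the authors' deposited tables, with CCT4 lower by 1.26, 0.88, 0.75 and 0.64. Prefoldin and cofactor genes were mixed, with 6, 8, 5 and 6 of 13 higher and 3, 4, 3 and 3 lower, and PFDN2 was higher by 1.21, 1.18, 1.12 and 1.04. SCAPER was higher by 2.09, 1.18, 1.17 and 1.44, while TTC5 had -0.27 (adjusted p = 0.185), -0.33 (adjusted p = 0.0430), 0.06 (adjusted p = 0.818) and 0.04 (adjusted p = 0.879). Of the remaining tubulin superfamily genes, 5 of 8, 3 of 8, 4 of 9 and 3 of 8 rose and 0 fell. TUBB1, the platelet isotype, rose by 0.90, 1.00 and 2.38 in the libraries labelled shEZH2, with #664 and with #667 (adjusted p = 0.770 with #665).

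Structural genes of the rest of the cytoskeleton fell in 19, 16, 16 and 17 of 22 in the authors' deposited tables. The same shares of all genes, and the same gap for genes called higher, apply to this and the following lists. TAGLN2, an actin-binding protein, was lower by 1.83, 1.55, 1.11 and 0.73. Proliferation genes fell in 11, 12, 12 and 10 of 20 and rose in 4, 4, 4 and 2, with MCM2, a replicative helicase subunit, lower by 1.30, 1.03, 0.84 and 1.25. Hepatocyte markers rose in 6, 7, 2 and 5 of 10 and fell in 3, 2, 5 and 3. Of 3 markers of other cells, 2 fell in each table, and the sum of that list, 1865 to 2225 CPM, was almost all LYZ. The part of these in the tubulin values was not tested.

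In WEHI-231 cells the minor isotype Tubb2a rose with MS8815. Of 9 genes tested 2 rose and 3 fell, beside 5.34% and 11.8% of genes in the authors' deposited table. Tubb2a had a rebuilt level of 27.7 CPM with MS8815 and 6.82 with DMSO, up by 2.02 on the log2 scale (SE 0.18, adjusted p = 1.38e-25) in the authors' deposited table. Its paralogue Tubb2b had 21.0 with MS8815 and 14.4 with DMSO and rose by 0.54 (SE 0.19, adjusted p = 0.0289). The abundant Tuba1b had 1599 with MS8815 and 2018 with DMSO and fell by 0.34 (SE 0.05, adjusted p = 2.52e-08). Tuba4a fell by 0.42 (SE 0.08) and Tubb5 by 0.14 (SE 0.05, adjusted p = 0.0446, and 0.0656 when adjusted over every gene with a p). Tubb3 stood at 0.277 with MS8815 and 0.331 with DMSO and was not tested.

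With EPZ-6438 and MS8815N 0 of the 10 genes passed, beside 0.243% and 0.119% of genes called in the authors' deposited tables (0 of the 10 at an unadjusted p under 0.05 with EPZ-6438 and 1 with MS8815N). Tubb2a had 8.84 CPM with EPZ-6438 and 8.11 with MS8815N, against 6.82 to 6.85 with DMSO. MS8815 differed from EPZ-6438 in 2 genes, Tubb2a by 1.65 (95% interval 1.02 to 2.28, adjusted p = 3.89e-05) and Tuba1b by -0.35 (-0.49 to -0.22, adjusted p = 3.89e-05), beside 3.09% of genes. It differed from MS8815N in the same 2, by 1.78 (1.13 to 2.42, adjusted p = 1.71e-05) and -0.34 (-0.50 to -0.18, adjusted p = 0.00273), beside 1.98%. EPZ-6438 and MS8815N differed in 0 genes, beside 0.0255%, with an interval of -0.61 to 0.88 for Tubb2a. All 3 compounds were given at 1 µM for 16 h and share the DMSO pair.

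Beside this, Cct subunits fell with MS8815 in 7 of 8, Cct8 by 0.42 and Tcp1 by 0.29 in the authors' deposited table. Of all genes, 5.34% were called higher and 11.8% lower. Proliferation genes fell in 13 of 20, with Pcna lower by 0.63. Of 17 genes of microtubule binding and dynamics tested, 2 fell and 0 rose. Stmn1 fell by 0.35 and Mapre1, which binds growing microtubule ends, by 0.43. Of 13 prefoldin and cofactor genes 0 passed. Of the B-cell markers 4 of 8 fell, and their part in the tubulin values was not tested.

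Across the 10 human comparisons, TUBA1B followed the median of the tubulin genes most closely (Pearson r = 0.990 over 10 log2 fold changes) and TUBB4B least (r = 0.065) among 9 of them. TUBA4A was below a deposited mean of 100 in at least 1 comparison and got no r, and each gene is itself part of the median. Outside the tubulin superfamily, the 6 genes of 7770 whose profile was most like that median were MRPS7 (r = 0.984), RCN2 (0.983), SEC23A (0.982), SDHAF2 (0.981), TMED3 (0.974) and PDHB (0.973). MRPS7 is a mitochondrial ribosomal protein, SEC23A a subunit of the COPII coat and PDHB a subunit of pyruvate dehydrogenase. These comparisons share control libraries, and the 4 HepG2 hairpin tables span most of the range, so the values are a description.

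**Figure D5:**
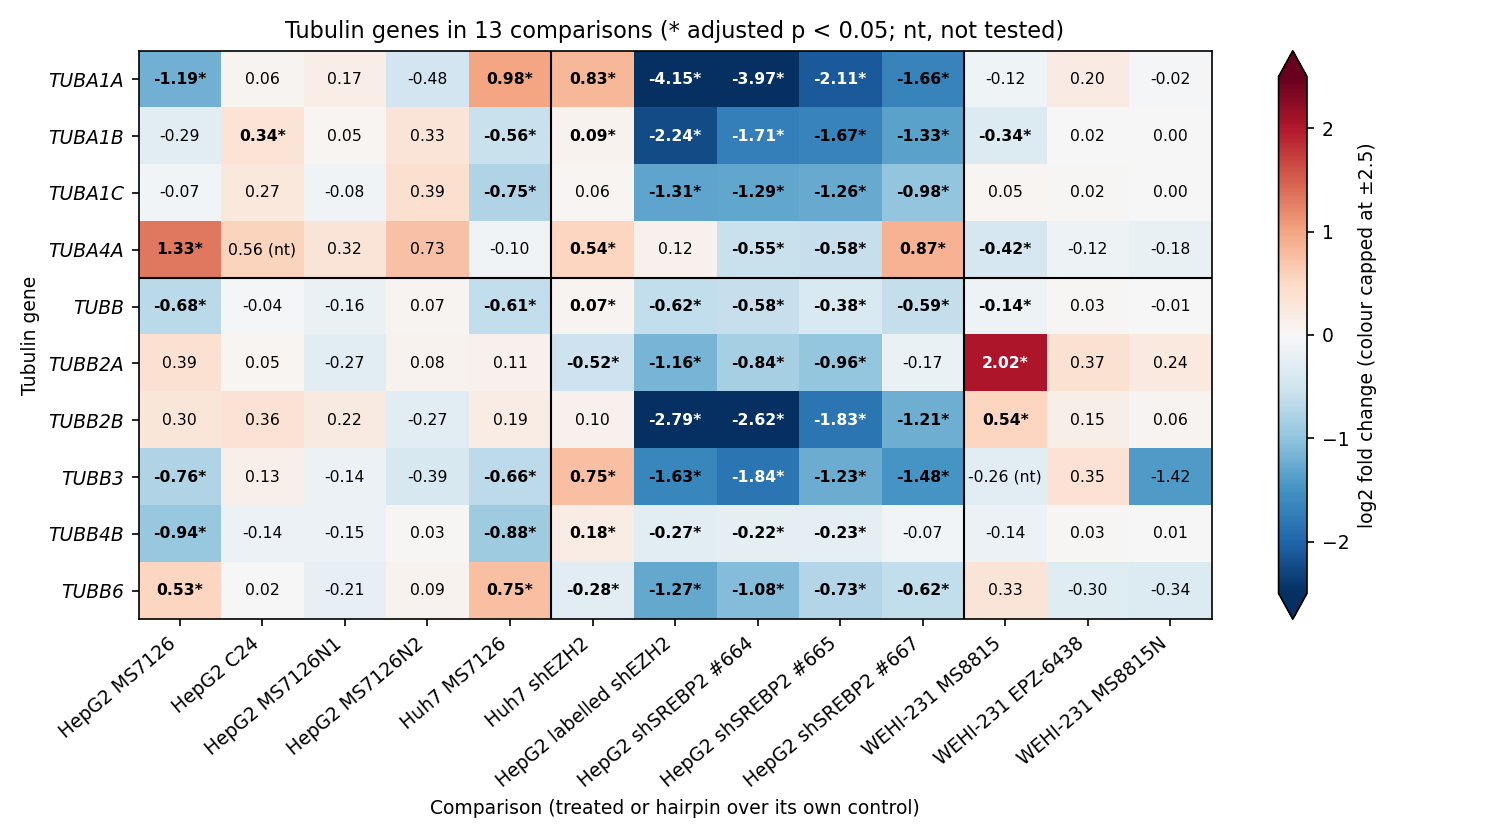
log2 fold change of the 10 tubulin genes (rows) in the 13 comparisons (columns), treated or hairpin over its own control, with stars at an adjusted p under 0.05 and nt where a gene was not tested. The HepG2 hairpin columns are blue for most genes, with TUBA1A at -4.15 and -3.97, the MS7126N1, MS7126N2, EPZ-6438 and MS8815N columns hold no star, and Tubb2a stands at 2.02 with MS8815.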

How the data were processed

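Messenger RNA was read from 36 libraries in 18 groups of 2. Per the submitters' processing notes, tools included STAR 2.4.2 and Salmon, and builds were GRCh38 and mm10. In 12 tables the authors deposited, per the file headers, each gene's mean normalized signal, log2 fold change, standard error, statistic (score) and raw and adjusted p-value, which were used as deposited at an adjusted p under 0.05. The Huh7 shEZH2 table also held the authors' estimated counts, which were rounded, filtered (14581 of 15208 genes kept) and compared by the TMM-scaled quasi-likelihood test of edgeR 4.0.16 in R 4.3.3, itself checked on simulated data. The log2-like normalized values deposited beside them were not used, and 20 rows with dates for symbols were left out. Group levels were rebuilt from deposited means and fold changes. In Huh7 shEZH2, the deposited log2 fold change of 95% of 9627 genes came within 0.0032 of the counted log2 ratio. The deposited mean drops out of that check, so it does not test the rebuilt levels. Levels of mouse and human tables were not compared. Deviations from the group mean showed no pattern shared by replicate number across groups (correlation -0.034). This is 1 value, since 2 libraries of a group mirror each other, and it does not show how cultures were paired. Members and gene lists were chosen with earlier results of these data known. Named list genes had a deposited mean of at least 100 and were among up to 4 called genes with the largest fold change. TTC5 and TUBB1 were also given where this rule did not pick them. Stretches of 31 bases and coding starts came from GENCODE 29.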

Additional observations from a re-analysis of the deposited data

Results flagged for a closer look

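TUBA1A responded to MS7126 in opposite directions in the HepG2 and Huh7 lines, and the difference of its log2 fold changes, HepG2 minus Huh7, was -2.18 (95% interval -2.71 to -1.65, adjusted p = 5.58e-13, normal test over all genes). Genes called in opposite directions in the 2 lines made up 0.548% of 12217 genes tested in both. TUBA1C also differed between the lines, by 0.68 (95% interval 0.26 to 1.10, adjusted p = 0.0325), with a call in Huh7 and none in HepG2. TUBA1A shares 48.6% of its 31-base stretches with TUBA1C and lies over the first bases of the TUBA1C gene on the other strand, and how reads of this overlap were counted was not tested. No group of 4 or more libraries exists, so single libraries were not examined for outlying values.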

How the results depend on the processing

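Of the deposited calls, requiring at least 2-fold as well left 2 tubulin genes for HepG2 MS7126, 0 for C24, 0 for Huh7 MS7126, 6, 5 and 4 for #664, #665 and #667, and 1 for MS8815. An adjusted p under 0.01 left 4 for HepG2 MS7126 (without TUBA4A and TUBB6, both higher), 0 for C24 and 3 for MS8815 (without Tubb5 and Tubb2b), and took TUBB4B from #665. Adjusting over every gene with a p left 5 for HepG2 MS7126 (TUBB6 lost, adjusted p = 0.0509), 0 for C24 (TUBA1B lost, adjusted p = 0.0798) and 4 for MS8815 (Tubb5 lost, adjusted p = 0.0656). The summed variance was divided by 2 on the assumption that shared DMSO and treated libraries contribute equally, since the DMSO variance itself was not estimated. Then 6 genes differed between MS7126 and MS7126N1, 4 between MS7126 and MS7126N2, 1 between C24 and MS7126N2 and 5 between MS8815 and EPZ-6438. The other pairs kept their counts within 1.5 times. In Huh7 shEZH2 the count of 8 called genes was 7 to 9 without 1 library (the lone library of that group taken to vary like the other group) and 8 with a replicate block, and no sign changed under any alternative. Without TUBB2A and TUBB2B the median of the rest was -0.48 for HepG2 MS7126, -0.58 for Huh7 MS7126 and 0.13 for Huh7 shEZH2. Equal totals, a scaling chosen after seeing the data, turned the sign of 7 of 66 uncalled and 0 of 64 called values. Depth is unknown in 12 of the 13 tables, and with 2 libraries a group small changes of TUBA4A and TUBB3 (mouse) could not be detected.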
